A study of Mus musculus with 12 samples.

Results

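The 10 genes described here encode 3 receptors of the epidermal growth factor receptor (EGFR) family, Egfr, Erbb2 and Erbb3, 6 ligands of EGFR, Areg, Ereg, Epgn, Hbegf, Tgfa and Btc, and the feedback inhibitor Errfi1. They were taken by name, through their Entrez gene IDs, from the 15802 genes listed for all libraries. All 10 were listed, and 9 of them passed the filter on low counts and were among the 11707 genes tested. Epgn did not pass it, with 3 to 9 estimated counts in each library.

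RNA was sequenced from mTEC, a mouse line of renal tubular epithelial cells. The 4 groups held 3 libraries each. NC was the control without silencing of fumarate hydratase (FH, gene Fh1), KD was silenced for it, and NC+TGF-β1 and KD+TGF-β1 were the same conditions after stimulation with TGF-β1, the cytokine used to model fibrosis. The labels give neither the silencing reagent nor the dose or duration of TGF-β1. They also do not say whether the 3 libraries of a group came from separate cultures, so p-values measure the spread between these libraries, which may be technical. The basal and the TGF-β1 libraries were deposited in separate tables, and an effect of the cytokine and a difference between those sets of libraries cannot be told apart.

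EGFR ligands are made as membrane-bound precursors and are released by sheddases such as ADAM17. A bound ligand brings receptors together in pairs, and the activated kinase domains signal through adaptors to the RAS-MAPK and PI3K pathways. ERBB2 has no known ligand of its own and ERBB3 has little kinase activity, so both act mainly as partners, while ERRFI1 (MIG6) binds the kinase domain of EGFR and blocks it. In kidney tubules, EGFR signalling is known both for repair after acute injury and, when it persists, for fibrosis.

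Areg, Ereg, Btc and Epgn lie next to each other on mouse chromosome 5. The RefSeq table of GRCm38.p6 gives the order of protein-coding genes there as Cxcl1, Cxcl2, Mthfd2l, Epgn, Ereg, Areg, Btc and Parm1. Promoters are shown for Areg and Btc because both neighbours were lower in the TGF-β1 libraries, and for Errfi1 because it held the same rare motif as Areg. Each is the 150 bases before the RefSeq start site in GRCm38.p6, written 5′ to 3′ on the gene's strand. Areg is at chr5:91139449-91139598 on the plus strand, Btc at chr5:91402995-91403144 on the minus strand and Errfi1, for the start of its main transcript, at chr4:150854920-150855069 on the plus strand. Capitals mark the matches to the motifs named in the next paragraph.
Areg: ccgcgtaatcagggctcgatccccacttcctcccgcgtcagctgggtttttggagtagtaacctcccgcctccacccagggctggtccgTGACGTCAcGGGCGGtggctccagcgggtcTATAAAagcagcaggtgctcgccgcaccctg
Errfi1: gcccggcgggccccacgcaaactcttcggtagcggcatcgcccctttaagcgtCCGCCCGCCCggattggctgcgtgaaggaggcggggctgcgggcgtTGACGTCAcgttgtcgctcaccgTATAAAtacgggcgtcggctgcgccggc
Btc: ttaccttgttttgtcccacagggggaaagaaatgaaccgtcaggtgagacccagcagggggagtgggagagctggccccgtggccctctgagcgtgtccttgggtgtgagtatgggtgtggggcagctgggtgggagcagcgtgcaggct

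The motifs were searched as exact letters on both strands of 8 promoter windows from 7 of the genes. Ereg, Erbb3 and Hbegf were not searched. The cyclic AMP response element TGACGTCA, bound by CREB, occurred in Areg, where it began 61 bases before the start site, and in Errfi1, where it began 51 bases before it. It occurred in 1.36% of all 32851 windows of that length. The SP1 motif GGGCGG occurred in Egfr, Areg, Tgfa and Errfi1 and in 28.6% of all windows, and its 2 matches in Errfi1 overlap. The TATA motif TATAAA occurred in Areg, Errfi1 and Epgn and in 7.57% of all windows. The TEAD motif GGAATG occurred in Erbb2 and in the window of a minor Errfi1 transcript, and in 7.59% of all windows. The AP-1 motif TGANTCA, the NF-kB motif GGGANTTCC and the SMAD palindrome GTCTAGAC occurred in none of these 8 windows, and in 4.24%, 0.950% and 0.0731% of all windows. The Btc window held none of the 7 motifs. A match describes letters in a window and is not evidence of binding.

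The libraries held 17651213 to 18462872 estimated counts. Fh1 was at 51.4, 53.9 and 53.5 CPM (counts scaled to library size and composition) in NC and at 28.6, 31.3 and 29.7 CPM in KD. It was at 49.6, 49.7 and 49.4 CPM in NC+TGF-β1 and at 15.01, 13.7 and 13.8 CPM in KD+TGF-β1. Silenced cells thus kept 56.4% of the control level in basal libraries and 28.6% in TGF-β1 libraries. Where the effect of silencing differs between these settings, its depth and the TGF-β1 setting cannot be told apart. The summed level of 10 markers of tubular epithelium was 4537 to 4903 CPM in basal and 7554 to 7950 CPM in TGF-β1 libraries. All but 1 of them were above 1 CPM in every group, the exception being Lrp2 (megalin). Fibroblast and pericyte markers summed to 0.728 to 1.52 CPM in basal and 6.33 to 8.95 CPM in TGF-β1 libraries, with 7 of 9 listed and none at 0 throughout. Most of that sum was Col1a1, at 0.692 CPM in NC and 6.25 CPM in NC+TGF-β1. Vim was at 0.254 CPM in NC, 0.143 in KD, 0.589 in NC+TGF-β1 and 1.35 CPM in KD+TGF-β1. It was called higher with TGF-β1 in KD but not in NC. Col1a2 had at most 8 counts in any library, and Pdgfra, Pdgfrb, Dcn and Col3a1 had at most 5. Endothelial markers summed to at most 4.08 CPM, most of it Cdh5. Leukocyte markers summed to 79.8 to 100.4 CPM, nearly all of it Csf1r. Markers of other cells moved with TGF-β1, and their part in the results was not tested. In bulk RNA, fewer cells of a type and less RNA per cell cannot be told apart. NC replicate 1 stood apart on the second principal component, and KD+TGF-β1 replicate 1 held Esrrb, a pluripotency gene, at 3.85 CPM against at most 0.747 CPM elsewhere.

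Levels of different genes are compared in TPM, which divides counts by transcript length and scales each library to the same sum. In NC, Hbegf had the highest level at 103 ± 3.48 TPM (SD, n = 3), followed by Egfr at 82.1 ± 1.41, Errfi1 at 55.0 ± 1.83, Tgfa at 31.6 ± 2.17, Erbb2 at 28.7 ± 0.714 and Erbb3 at 27.3 ± 0.316 TPM. Areg at 9.57 ± 0.173 TPM and Ereg at 8.57 ± 1.94 TPM followed, and their libraries overlapped. Btc was at 2.24 ± 0.584 TPM and Epgn at 0.333 ± 0.0929 TPM. The first 3 places were the same in all 4 groups. The order changed among the lower genes: Erbb2 stood above Tgfa in both TGF-β1 groups, and in KD+TGF-β1 the neighbours Erbb3 and Tgfa, at 23.7 ± 1.22 and 23.4 ± 1.17 TPM, overlapped. Erbb2 and Erbb3 overlapped in KD.

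**Figure D1:**
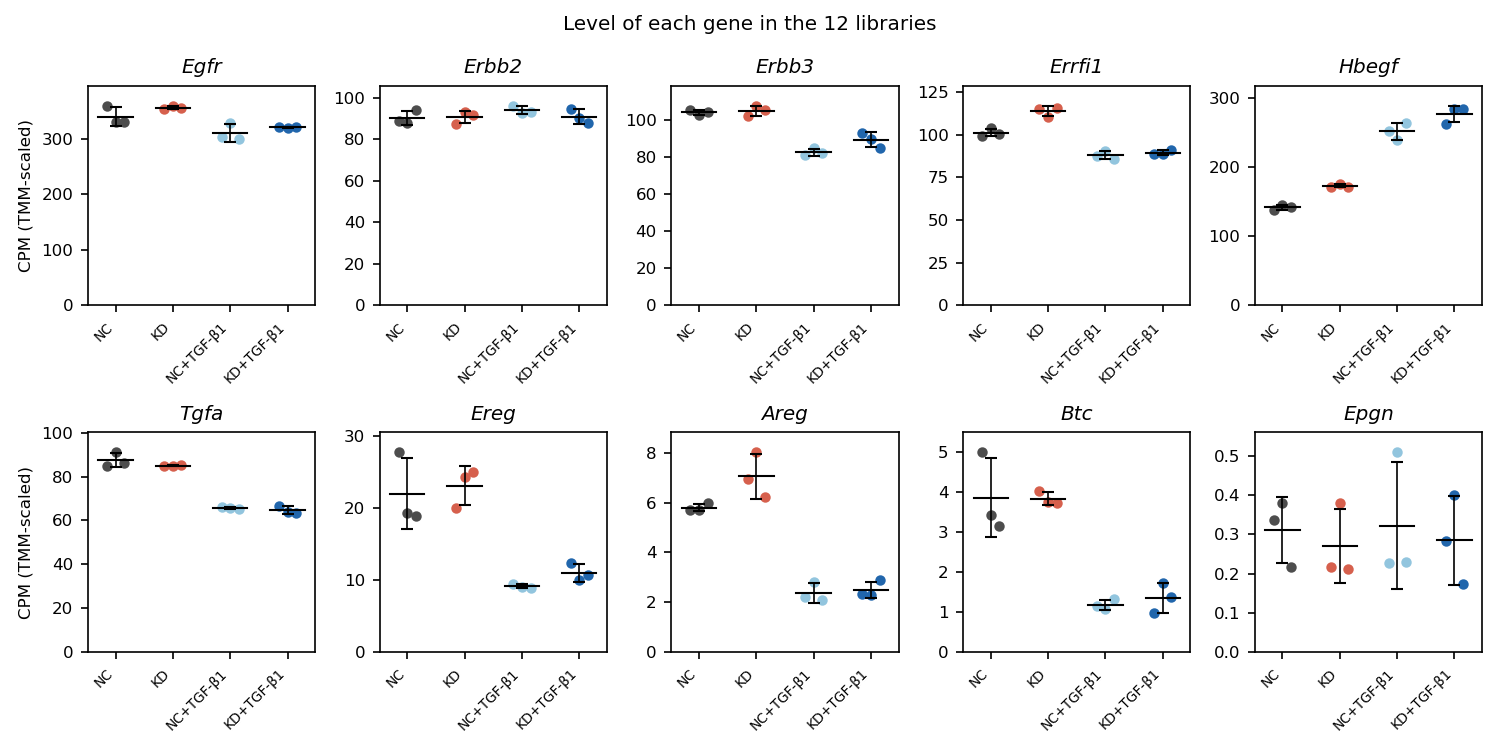
Level of each of the 10 genes in CPM (y axis, linear from 0) in the 12 libraries, by group (x axis); points are libraries, horizontal lines are group means and bars are 1 SD (n = 3). Hbegf is the gene whose TGF-β1 libraries, at 239 to 284 CPM, all lie above its basal libraries, while those of Tgfa, Ereg, Areg, Btc, Egfr, Erbb3 and Errfi1 lie below theirs.

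Among the receptors, silencing of Fh1 changed no level past the test. Egfr was at 359, 330.2 and 330.4 CPM in NC and at 353, 358 and 356 CPM in KD. The groups overlapped through NC replicate 1, and the log2 change was 0.07 (SE 0.04, adjusted p = 0.418, edgeR). Egfr was at 303, 328 and 300.4 CPM in NC+TGF-β1 and at 322, 319.8 and 321 CPM in KD+TGF-β1, again with overlap. The log2 change there was 0.05 (SE 0.04, adjusted p = 0.508). Erbb2 kept to 87.5 to 96.0 CPM over all 12 libraries. Its log2 change with silencing was 0.01 in basal and -0.05 in TGF-β1 libraries (SE 0.04 each, adjusted p = 0.952 and 0.522).

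Erbb3, the partner receptor for neuregulins, was at 105, 103 and 104 CPM in NC and at 102, 107 and 105 CPM in KD, with a log2 change of 0.01 (SE 0.04, adjusted p = 0.916). In TGF-β1 libraries it was at 81.1, 84.7 and 82.1 CPM in NC and at 93.1, 89.6 and 85.0 CPM in KD. These groups did not overlap, which held for 32.2% of all tested genes. The log2 difference of 0.11 (SE 0.04) did not pass the test (adjusted p = 0.0806). Without KD+TGF-β1 replicate 3, the lowest of its group, it passed, at 0.14 with an adjusted p of 0.0464.

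With TGF-β1, Erbb3 and Egfr fell and Erbb2 did not pass the test. Erbb3 fell to 79.4% of its basal level in NC and to 85.0% in KD, which are log2 changes of -0.33 and -0.23 (SE 0.04 each, adjusted p = 2.92e-06 and 8.05e-05). Egfr fell to 91.4% in NC and to 90.2% in KD, with log2 changes of -0.13 and -0.15 (SE 0.04 each, adjusted p = 0.00918 and 0.00374). The basal and TGF-β1 libraries of both genes did not overlap in either cell population, which held for 65.9% of all tested genes in NC and 72.8% in KD. The call for Egfr in NC was lost when only the compared groups were fitted (log2 change -0.11, adjusted p = 0.0742) and without NC replicate 1 and KD+TGF-β1 replicate 1 together (log2 change -0.08, adjusted p = 0.0682). For Erbb2 the log2 changes were 0.06 and 0.00 (SE 0.04 each, adjusted p = 0.225 and 0.957). The former passed without NC replicate 3, at 0.12 with an adjusted p of 0.0205.

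Summed over the 3 receptor genes, the level was 138 ± 1.42 TPM in NC, 145 ± 3.48 in KD, 128 ± 2.17 in NC+TGF-β1 and 132 ± 3.35 TPM in KD+TGF-β1 (SD, n = 3). Egfr held 59.5 to 60.8% of that sum on average in every group. The mean share of Erbb3 was 19.7% in NC, 19.1% in KD, 17.0% in NC+TGF-β1 and 17.9% in KD+TGF-β1. Erbb2 took 20.8%, 20.1%, 23.5% and 22.2% in the same order.

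Egfr was listed with 3 RefSeq transcripts, and their shares of its TPM are estimates of the authors' quantification. The transcript of the full receptor, NM_207655 (1210 residues in GENCODE), held 72.0 ± 1.49% in NC, 73.9 ± 1.87% in KD, 72.4 ± 1.07% in NC+TGF-β1 and 74.0 ± 1.59% in KD+TGF-β1. NM_007912, which encodes a shorter protein of 655 residues, held 12.3 to 13.6% on average in the 4 groups, and the predicted XM_036156288 held 13.2 to 14.7%. The transcript shares overlapped between groups. Errfi1 was at 93.6 to 96.7% in NM_133753, whose start is the promoter shown, and the other receptors and ligands except Tgfa had 1 transcript each.

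Hbegf, which encodes heparin-binding EGF-like growth factor, was the ligand that rose with silencing. It was at 138, 146 and 142 CPM in NC and at 172, 176 and 172 CPM in KD. Every KD library was above every NC library, and the groups likewise did not overlap for 22.7% of all tested genes. The rise was 22.0% in the fit (log2 change 0.29, SE 0.04, adjusted p = 0.00161, edgeR's quasi-likelihood test with Benjamini-Hochberg adjustment). The change kept its call when any 1 of the 6 libraries compared was left out, between 0.27 and 0.31, with a highest adjusted p of 0.0125.

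In TGF-β1 libraries Hbegf was at 252, 239 and 265 CPM in NC and at 264, 284 and 284 CPM in KD. The groups overlapped, since KD+TGF-β1 replicate 1 was just below NC+TGF-β1 replicate 3. The log2 change of 0.14 (SE 0.04) passed the threshold narrowly (adjusted p = 0.0427). It missed the threshold without NC+TGF-β1 replicate 1 (adjusted p = 0.105), without NC+TGF-β1 replicate 2 (0.161), without KD+TGF-β1 replicate 2 (0.151) and without KD+TGF-β1 replicate 3 (0.158). It also missed it with DESeq2 (0.0628), with DESeq2's size factors in edgeR (0.0575), with no filter on low counts (0.0511), in the fit with replicate number as a block (0.0537) and on log2 TPM with limma (0.0541 with a pseudocount of 1). The log2 change stayed between 0.10 and 0.17 under all 16 alternatives. The difference between the silencing effects in the 2 settings, the interaction, was -0.15 on the log2 scale (SE 0.06). Its p was 0.0222 unadjusted and 0.329 adjusted in edgeR, so the effects were not shown to differ.

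With TGF-β1, Hbegf rose, to 177% of the basal level in NC and 160% in KD. The log2 changes were 0.83 and 0.68 (SE 0.04 each, adjusted p = 4.88e-10 and 3.62e-09). The lowest TGF-β1 library was 239 CPM and the highest basal one 176 CPM.

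**Figure D2:**
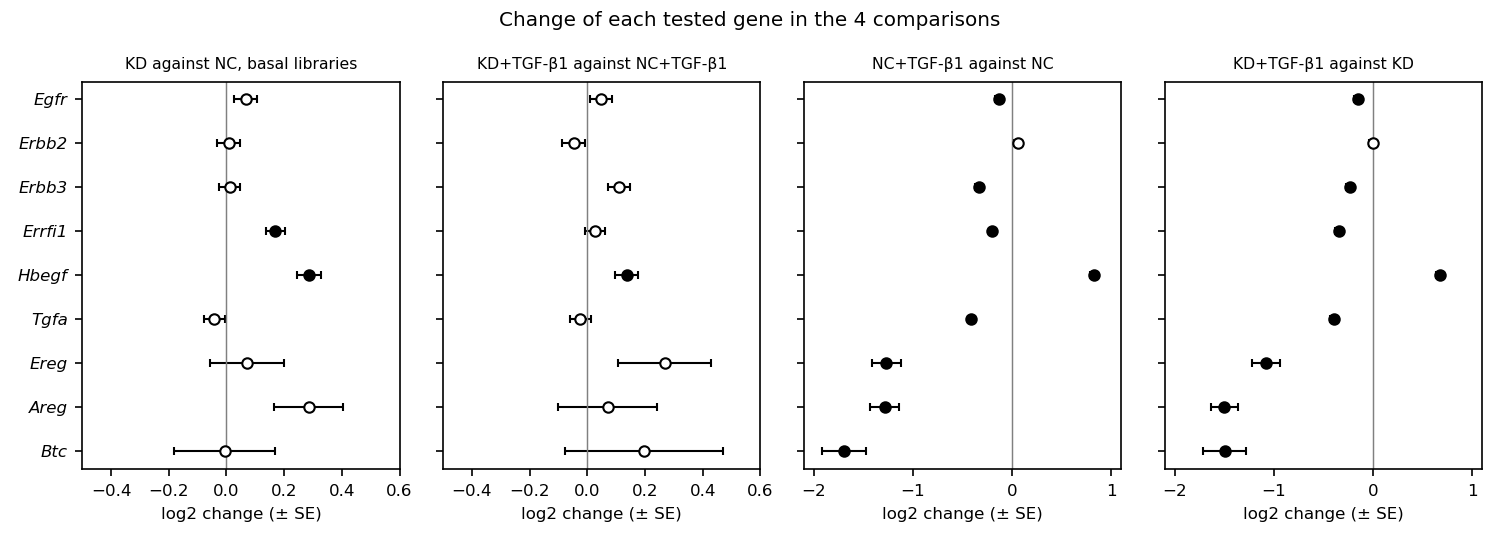
Log2 change of the 9 tested genes (x axis) in the 4 comparisons (panels), with bars of 1 SE from the fit over 12 libraries; filled points passed an adjusted p of 0.05, and the 2 panels on silencing have a narrower x axis than those on TGF-β1. Hbegf is at 0.83 and 0.68 with TGF-β1, and Btc, Areg and Ereg lie between -1.08 and -1.70.

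The 3 neighbouring ligand genes Areg, Ereg and Btc had the largest changes with TGF-β1 among the 9 genes. Areg encodes amphiregulin, a low-affinity EGFR ligand and a known target of CREB and YAP. It had 102, 105 and 110 estimated counts in NC, 128, 148 and 117 in KD, 39, 50 and 36 in NC+TGF-β1 and 41, 40 and 50 in KD+TGF-β1. TGF-β1 libraries were all below basal ones, at 41.1% of the level in NC and 35.4% in KD (log2 changes -1.28, SE 0.15, and -1.50, SE 0.14, adjusted p = 2.85e-06 and 3.58e-07). With silencing, the basal groups did not overlap, which held for 22.7% of all tested genes. The log2 difference of 0.28 (SE 0.12) did not pass the test (adjusted p = 0.234, with a range of 0.171 to 0.587 over the 15 alternatives that gave one). In TGF-β1 libraries the difference was 0.07 (SE 0.17, adjusted p = 0.856).

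Ereg encodes epiregulin, a ligand of EGFR and ERBB4. It had 495, 356 and 349 estimated counts in NC, 368, 450 and 469 in KD, 165, 160 and 154 in NC+TGF-β1 and 217, 174 and 185 in KD+TGF-β1. NC replicate 1 was the highest of all 12 libraries. TGF-β1 libraries were at 41.4% of the basal level in NC and 47.5% in KD (log2 changes -1.27, SE 0.15, and -1.08, SE 0.14, adjusted p = 3.44e-06 and 1.20e-05). The differences with silencing were 0.07 (SE 0.13, adjusted p = 0.831) in basal and 0.27 (SE 0.16, adjusted p = 0.343) in TGF-β1 libraries. The latter groups did not overlap, which held for 32.2% of all tested genes.

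Btc encodes betacellulin, also a ligand of EGFR and ERBB4. It had 89, 63 and 58 estimated counts in NC, 74, 69 and 70 in KD, 20, 19 and 23 in NC+TGF-β1 and 17, 30 and 24 in KD+TGF-β1. TGF-β1 libraries were at 30.8% of the basal level in NC and 35.4% in KD (log2 changes -1.70 and -1.50, SE 0.22 each, adjusted p = 1.21e-05 and 2.97e-05). Silencing gave differences of -0.01 (SE 0.18, adjusted p = 0.991) and 0.20 (SE 0.27, adjusted p = 0.725), with overlapping groups. Counts this low limit what could be detected for Btc with silencing. Epgn, the fourth ligand of the neighbourhood, was at 3 to 9 estimated counts, and its groups overlapped.

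The genes on either side were not all lower with TGF-β1. The chemokine genes Cxcl1 and Cxcl2 fell, with log2 changes of -2.77 and -2.23 in NC (adjusted p = 4.49e-13 and 7.38e-09) and of -3.40 and -2.51 in KD (adjusted p = 4.87e-14 and 7.48e-10). Mthfd2l, which lies between Cxcl2 and Epgn and encodes a mitochondrial folate enzyme, was at -0.05 in NC (adjusted p = 0.597) and 0.05 in KD (adjusted p = 0.564). Parm1, beyond Btc, was at 0.01 in NC and -0.28 in KD (adjusted p = 0.960 and 0.317). With silencing in basal libraries Cxcl1 and Cxcl2 rose by 0.51 and 0.50 on the log2 scale (adjusted p = 0.000117 and 0.0116). Mthfd2l and Parm1 were not called there (adjusted p = 0.588 and 0.286). In TGF-β1 libraries Cxcl1 and Cxcl2 were at -0.12 and 0.22 with silencing (adjusted p = 0.475 and 0.655). Parm1 was lower there, at -0.74 (adjusted p = 0.0437), and Mthfd2l was at 0.01 (adjusted p = 0.963).

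Tgfa, which encodes transforming growth factor alpha, was at 84.9, 91.0 and 86.3 CPM in NC and at 85.0, 84.6 and 85.1 CPM in KD. It was at 66.0, 65.9 and 65.2 CPM in NC+TGF-β1 and at 66.7, 63.8 and 63.2 CPM in KD+TGF-β1. Basal and TGF-β1 libraries were apart, which held for 65.9% of all tested genes in NC and 72.8% in KD. NC and KD overlapped in both settings. With TGF-β1 it fell to 75.2% of the basal level in NC and 76.1% in KD (log2 changes -0.41 and -0.39, SE 0.04 each, adjusted p = 1.86e-07 and 2.85e-07). With silencing the differences were -0.04 and -0.02 (SE 0.04 each, adjusted p = 0.594 and 0.745).

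The summed level of the 6 ligand genes was 155 ± 4.67 TPM in NC, 181 ± 3.81 in KD, 216 ± 9.81 in NC+TGF-β1 and 235 ± 6.05 TPM in KD+TGF-β1 (SD, n = 3). It was higher in TGF-β1 libraries although 4 of the 6 genes fell there. Hbegf held 66.2 ± 1.19% of the sum in NC, 69.8 ± 0.242% in KD, 85.0 ± 1.04% in NC+TGF-β1 and 86.0 ± 0.899% in KD+TGF-β1. The share of Tgfa was 20.4 ± 0.814%, 17.3 ± 0.576%, 11.1 ± 0.572% and 9.97 ± 0.763% in the same order. Areg, Ereg and Btc held 6.18%, 5.53% and 1.44% in NC and 1.83%, 1.66% and 0.319% in NC+TGF-β1.

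**Figure D3:**
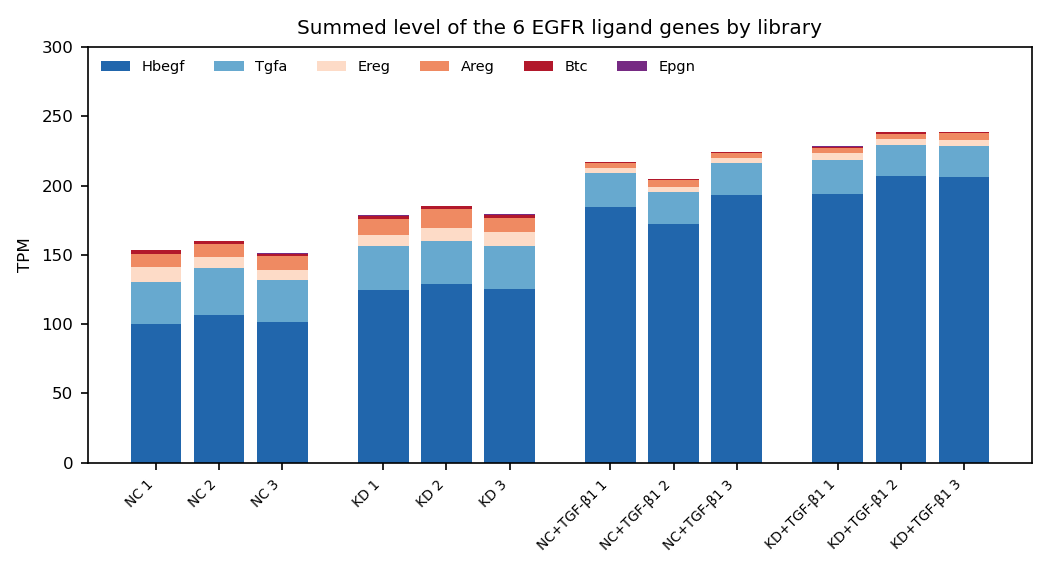
Level of the 6 ligand genes in TPM (y axis, stacked from 0) in each of the 12 libraries (x axis, group and replicate). Hbegf fills 64.9 to 67.3% of the bars in NC and 84.0 to 86.0% in NC+TGF-β1, and the bars are higher in the TGF-β1 libraries.

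Errfi1, the inhibitor that EGFR signalling itself induces, was at 99.2, 104 and 101 CPM in NC and at 115, 110.5 and 116 CPM in KD. All KD libraries were above all NC libraries, and the groups likewise did not overlap for 22.7% of all tested genes. The rise was 12.5% in the fit (log2 change 0.17, SE 0.03, adjusted p = 0.0113). The call was lost without KD replicate 1 (adjusted p = 0.0632), without KD replicate 3 (0.0562) and when only NC and KD were fitted (0.0706), while the log2 change stayed between 0.15 and 0.19 under all alternatives. In TGF-β1 libraries Errfi1 was at 87.3, 90.5 and 85.9 CPM in NC and at 88.6, 88.9 and 91.0 CPM in KD. These groups overlapped, with a log2 difference of 0.03 (SE 0.03, adjusted p = 0.717). The interaction was -0.14 (SE 0.05), with a p of 0.00980 unadjusted and 0.244 adjusted in edgeR. With TGF-β1, Errfi1 fell to 86.9% of the basal level in NC and 78.6% in KD (log2 changes -0.20 and -0.35, SE 0.03 each, adjusted p = 0.000132 and 6.08e-07).

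**Figure D4:**
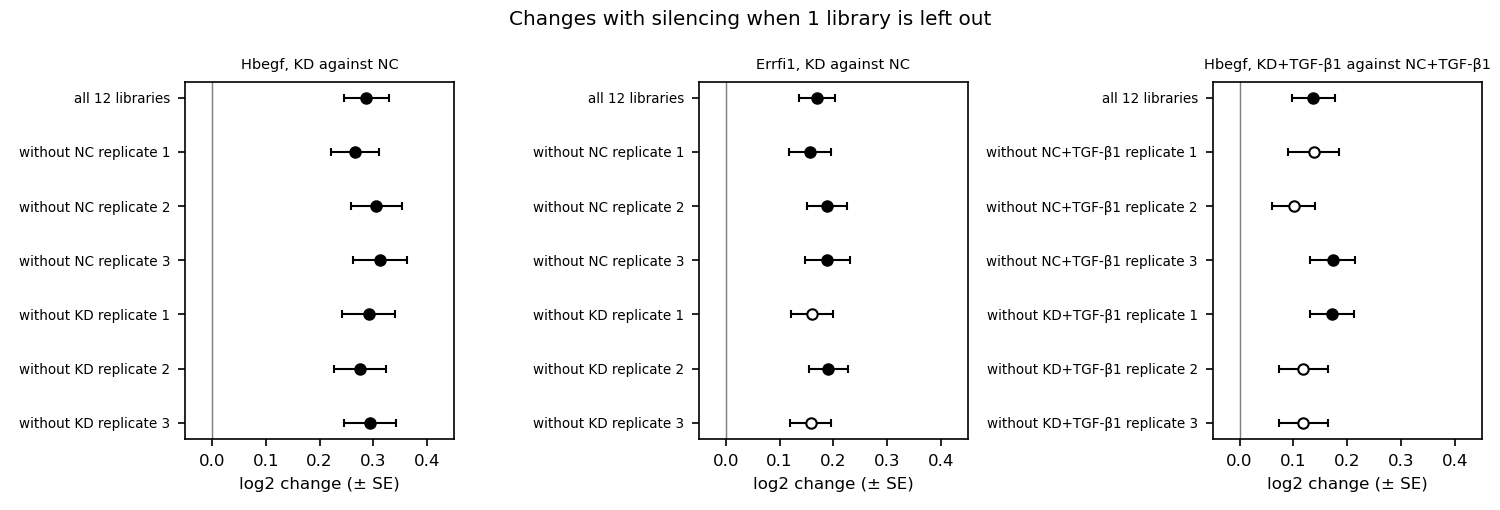
Log2 change with silencing (x axis, bars of 1 SE) for Hbegf and Errfi1 in basal libraries and Hbegf in TGF-β1 libraries, with all 12 libraries and with 1 library left out (y axis); filled points passed an adjusted p of 0.05. Hbegf in basal libraries is filled throughout, Errfi1 is open without KD replicate 1 or 3, and Hbegf in TGF-β1 libraries is open without 4 of 6 libraries.

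Counted together, 2 of the 9 tested genes rose with silencing in basal libraries, Hbegf and Errfi1, and none fell, where 3.66% of all 11707 tested genes were called. The median log2 change was 0.07 over the 9 genes and -0.01 over all tested genes. With silencing in TGF-β1 libraries, 1 rose, Hbegf, and none fell, where 11.4% of all genes were called. The medians there were 0.07 and 0.00. With TGF-β1, 1 rose and 7 fell in NC, where 64.2% of all genes were called, and the same counts were found in KD, where 65.1% were called. The median log2 change was -0.33 in NC and -0.35 in KD, against -0.03 and -0.01 over all tested genes. With silencing, the groups did not overlap for 3 of the 9 genes in basal and 2 in TGF-β1 libraries, against 22.7% and 32.2% of all tested genes. With TGF-β1 they did not overlap for 8 of the 9 in NC and 8 in KD, against 65.9% and 72.8%. The 2 comparisons of TGF-β1 share no library, but each shares its basal or TGF-β1 groups with a comparison of silencing. No interaction of silencing and TGF-β1 was called among the 9 genes by edgeR, where 0.888% of all genes were called. At an unadjusted p under 0.05 there were 2, Hbegf and Errfi1, where 11.3% of all genes were, and DESeq2 called none of those it gave an adjusted p.

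The genes whose patterns over the 12 libraries were nearest to those of the 3 most variable members were found by the root mean square difference of centred log2 CPM, over 9544 genes. The nearest to Btc were Man1a, a Golgi mannosidase, at 0.18, Arhgap29, a RhoGAP, at 0.18 and Arrdc3, an arrestin-domain protein, at 0.19. The nearest to Areg were Hcfc1r1 at 0.14, Rassf6, a RAS-association domain protein also on chromosome 5, at 0.15 and Ly6a at 0.15. The nearest to Ereg were Eea1, an early endosome protein, at 0.12, Styk1, a kinase-like protein, at 0.14 and Ncapg2, a condensin II subunit, at 0.15. Areg and Ereg, as members left out of that search, differed from each other by 0.26. The genes named were picked as the nearest of 9544, so a larger value for a preset pair carries no weight. Where 0.26 falls among all differences was not determined.

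The rest of the pathway is given by lists, and the share of all tested genes called is repeated beside their counts. Of the other ErbB receptors and ligands, Erbb4 and Nrg4 had at most 1 count in any library, and Erbb4, which encodes a further receptor for HB-EGF, betacellulin and epiregulin, had 0 counts in 10 of the 12. Nrg1, the neuregulin ligand of ERBB3, was at 135, 128 and 135 CPM in NC and at 86.4, 90.7 and 85.0 CPM in NC+TGF-β1. It was at 126, 125 and 133 CPM in KD and at 78.0, 74.9 and 80.4 CPM in KD+TGF-β1. It fell with TGF-β1, by 0.60 in NC and by 0.72 in KD on the log2 scale (adjusted p = 9.68e-09 and 1.45e-09), and with silencing in TGF-β1 libraries (log2 change -0.17, adjusted p = 0.0171). Nrg2 fell with TGF-β1 (-0.29 and -0.67, adjusted p = 0.0281 and 8.58e-05), and Egf, the third gene tested, was not called in any comparison. With TGF-β1, 2 of these 3 thus fell in NC and in KD, near the 64.2% and 65.1% of all genes called. With silencing, 0 of 3 were called in basal and 1 of 3 in TGF-β1 libraries, where 3.66% and 11.4% of all genes were.

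Of 7 ligand sheddases and their carriers, 2 rose with silencing in basal and in TGF-β1 libraries and none fell, where 3.66% and 11.4% of all genes were called. These were Adam12, a metalloprotease that can release HB-EGF (log2 changes 0.22 and 0.31, adjusted p = 0.00756 and 0.000255), and Rhbdf2 (iRhom2), a carrier of ADAM17 (0.21 and 0.18, adjusted p = 0.0162 and 0.0150). With TGF-β1, 3 rose and 2 fell in both NC and KD, near the 64.2% and 65.1% of all genes called. Adam12 rose by 0.86 and 0.94 and Adam10 by 0.43 and 0.55, while Adam17 changed by -0.46 and -0.40 and Adam9 by -0.71 and -0.58.

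Of 15 genes of receptor turnover and inhibition, none was called by edgeR with silencing in basal libraries (4 at an unadjusted p under 0.05, where 17.3% of all genes were). In TGF-β1 libraries 2 rose with silencing and none fell, near the 11.4% of all genes called. These were Usp8 and Lrig2 (0.12 and 0.19, adjusted p = 0.0169 and 0.0290). With TGF-β1, 5 rose and 4 fell in NC and 6 rose and 4 fell in KD, near the 64.2% and 65.1% of all genes called. Among them, the ubiquitin ligase gene Cblb rose (0.68 and 0.74) and its relative Cblc fell (-0.65 and -0.50). Of 17 adaptors and RAS-MAPK kinases, none was called by edgeR with silencing in basal libraries (2 at an unadjusted p under 0.05, where 17.3% of all genes were). In TGF-β1 libraries 1, Map2k1, rose with silencing (0.10, adjusted p = 0.0389), where 11.4% of all genes were called. With TGF-β1, 5 rose and 5 fell in NC and 7 rose and 6 fell in KD, where 64.2% and 65.1% of all genes were called. The largest change among them was in Plcg1 (0.88 and 0.84).

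Of 18 feedback and target genes of RAS-MAPK signalling, 4 rose and 1 fell with silencing in basal libraries, where 3.66% of all genes were called. Egr1, an immediate early transcription factor, was at 25.1, 22.1 and 25.8 CPM in NC and at 44.1, 44.0 and 42.0 CPM in KD (log2 change 0.83, adjusted p = 4.61e-06). Dusp5, Phlda1 and Epha2 rose by 0.26, 0.17 and 0.12, and the phosphatase gene Dusp4, named after its value was seen, was at -0.14 (adjusted p = 0.0458). In TGF-β1 libraries 4 rose and 1 fell, where 11.4% of all genes were called. Ccnd1, Phlda1 and Epha2 rose by 0.15, 0.22 and 0.14, Fosl1, an AP-1 subunit, was at -0.33 (adjusted p = 0.00497), and Ier3, named after its value was seen, rose by 0.12. With TGF-β1, 4 rose and 11 fell in NC as well as in KD, where 64.2% and 65.1% of all genes were called. Egr1 was at -1.14 and -1.97, Ccnd1 at -0.57 and -0.45, Ier3 at 0.69 and 0.71 and Phlda1 at 0.62 and 0.67. Of 8 other receptor tyrosine kinases, 1 rose with silencing in basal libraries, Epha2, where 3.66% of all genes were called. Epha2 is also on the list of RAS-MAPK targets, so the same gene is counted in both. In TGF-β1 libraries 2 rose, Epha2 and Axl (Axl by 0.13, adjusted p = 0.00834), where 11.4% were called. With TGF-β1, 3 rose and 4 fell in NC and 3 rose and 3 fell in KD, where 64.2% and 65.1% of all genes were called.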

How the data were processed

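Per the labels' protocols, TRIzol was used for the total RNA and a BGI kit for the mRNA libraries. Tools in the submitters' processing notes are RSEM 1.3.1, DESeq2 1.34.0, HISAT2 and Bowtie2, with no step given, and the build there is hg38, which is human, while the samples are mouse. The authors deposited 2 tables of RefSeq transcripts, for basal and for TGF-β1 libraries. Per the file headers they hold estimated counts, TPM, FPKM and a normalized signal (normalized read count); the last 2 were not used here. Transcripts of 1 Entrez gene ID were added up, for TPM and for estimated counts, which were then rounded. Symbols came from the RefSeq table of GRCm38.p6, which matched 99.3% of genes.

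The 11707 genes passing filterByExpr were tested with edgeR 4.0.16 (R 4.3.3): TMM scaling, 1 coefficient per group over 12 libraries, and the quasi-likelihood F-test (8 residual degrees of freedom). A gene was called when its p, adjusted over all tested genes by Benjamini-Hochberg, was under 0.05. The 5 contrasts were silencing without and with TGF-β1, TGF-β1 in NC and in KD, and their interaction. Alternatives were DESeq2 1.42.0, DESeq2's size factors, no filter, genes listed in either table, only the compared groups, replicate blocks, limma 3.58.1 on log2(TPM + 1) or log2(TPM + 0.1), a log2 change of at least 1, leaving out each library, and, chosen after seeing the data, leaving out NC replicate 1 and KD+TGF-β1 replicate 1 together.

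All 10 members are named in every comparison, with Fh1 as the check of silencing. Of each pathway list, up to 4 called genes with the smallest adjusted p could be named; other names are said to be later choices or are flanking genes. Patterns were compared for the 3 members with the largest range, among genes that averaged 5 CPM or more. The members and lists were chosen with earlier results of these data known. No pair of libraries within a group matched within counting noise (chi-square per gene 1.67 to 13.4). Promoters were credited to RefSeq, and transcript starts and protein lengths to GENCODE.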

Additional observations from a re-analysis of the deposited data

Results flagged for a closer look

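By the interaction test over all genes in edgeR, the effect of silencing differed between basal and TGF-β1 libraries for 3 of the named genes. None of them is a member of the EGFR family, and 0.888% of all tested genes were called. Fh1 itself had an interaction of -0.98 on the log2 scale (adjusted p = 8.18e-06): its level was lower in all 3 KD+TGF-β1 libraries, at 13.7 to 15.01 CPM, than in KD, at 28.6 to 31.3 CPM. Egr1 had an interaction of -0.84 (adjusted p = 0.00130), higher in 3 of 3 KD than NC libraries in the basal set and overlapping in the TGF-β1 set. Cxcl1 had an interaction of -0.64 (adjusted p = 0.0151). Since Fh1 was silenced more deeply in the TGF-β1 libraries, depth of silencing and the TGF-β1 setting cannot be told apart in these interactions.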

How the results depend on the processing

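The number of the 9 genes called moved as follows. With silencing in basal libraries it was 1 with only the compared groups, where 151 of all 11434 tested genes were called. At a log2 change of at least 1 it was 0, where 6 of all 11707 were called. When 1 library was left out it was 1 to 2, where 212 to 641 of all tested genes were called. With silencing in TGF-β1 libraries it was 0 with DESeq2, DESeq2's size factors, no filter, the replicate block and limma at either pseudocount. Under these, 871 to 1241 of all tested genes were called. At a log2 change of at least 1 it was also 0, where 16 of all 11707 were called. When 1 library was left out it was 0 to 1, where 787 to 974 of all tested genes were called. With TGF-β1 it was 3 in NC and 3 in KD at a log2 change of at least 1, where 1063 and 1140 of all 11707 were called. The cause was not tested. Otherwise each count stayed within 1.5 times, and no interaction was called under any alternative. Same-numbered libraries deviated with correlations of -0.0972 to 0.0728. These show no pairing by number, but with 3 libraries per group they cannot exclude a shared culture or day, and the labels do not say what the numbers mark. The block ended no other call among the 9 genes. Changes of sign touched differences that were called in neither fit. With both libraries that stood apart left out, Erbb2 was at -0.00683 with silencing in basal libraries and -0.019 with TGF-β1 in KD, Btc at 0.217 with silencing, and the Ereg interaction at -0.0928. Basal silencing of Btc gave 0.00674 with DESeq2's size factors, 0.00663 with DESeq2, 0.00109 with only the compared groups, and 0.0175 and 0.0317 with limma at the larger and smaller pseudocount. The Tgfa interaction was -0.0119 and -0.0126 there. When 1 library was left out, basal silencing ranged from -0.0122 to 0.0629 for Erbb2, from -0.00604 to 0.0371 for Erbb3, from -0.012 to 0.272 for Ereg and from -0.108 to 0.22 for Btc. Silencing in TGF-β1 libraries ranged from -0.0439 to 0.216 for Areg and from -0.0101 to 0.392 for Btc, and TGF-β1 in KD from -0.0271 to 0.0258 for Erbb2. Interactions ranged from -0.0601 to 0.0232 for Egfr, from -0.00407 to 0.28 for Ereg, from -0.0133 to 0.0373 for Tgfa and from -0.0229 to 0.398 for Btc.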
